A study of Arabidopsis thaliana with 12 samples.

Results

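Transcript levels in total RNA of Arabidopsis thaliana seedlings were compared between plants returned to light after a short darkness and plants kept in light. The comparison takes the 2 reillumination arrays and the 2 light arrays of total RNA, out of 12 Affymetrix ATH1 arrays in the series. It covers every probe set on the array that is not an Affymetrix control, 22746 of 22810. All plants were 14-day-old whole seedlings of ecotype Col-0 carrying the transgene 35S:HF-RPL18B, a His6-FLAG-tagged ribosomal protein L18B under the near-constitutive CaMV 35S promoter, and no line without it was used. They grew on solid medium with sucrose. Reillumination seedlings spent 1 h in darkness from midway through their daily light phase and then 10 min in light. Darkness seedlings were sampled after the 1 h of darkness, and light seedlings after 1 h of continued light. Each condition has 2 arrays of total RNA, taken from the clarified extract, and 2 of polysomal RNA, captured from that extract through the tag on anti-FLAG beads. Light seedlings sampled 10 min later, at the hour of the reillumination harvest, are not among the arrays, so the treatment and the 10 min later harvest cannot be told apart. In whole seedlings, fewer cells of a type and less RNA per cell cannot be told apart either.

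Light runs carbon assimilation in green tissue and also acts through photoreceptors, which set the activity of transcription factors such as HY5 and its homologue HYH and of the circadian clock. When light is withdrawn, plants draw on reserves: the SnRK1 kinase responds to low energy, and genes for the breakdown of branched-chain amino acids, lipids and proteins are typically induced. An mRNA level depends on synthesis and on decay, so a level measured minutes after a light change still carries transcripts made before it.

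Replicate arrays correlated across probe sets at r = 0.9946 after reillumination and 0.9948 in light. The 3'-minus-5' difference of the GAPDH control probe sets, a sign of RNA quality, was log2 0.98 and 1.05 on the reillumination arrays and 0.92 and 0.89 on the light arrays. The same difference for ubiquitin was 1.59 and 1.55 after reillumination and 1.62 and 1.51 in light. For actin it was 4.17 and 3.72 after reillumination and 4.31 and 4.59 in light, lower after reillumination in both same-numbered pairs. The part of RNA quality in the results was not tested. Few markers of single cell types are paired by the annotation with a probe set of their own. The root marker PYK10, a beta-glucosidase, stood at log2 13.34 and 13.23 after reillumination and 13.37 and 13.27 in light. The mesophyll marker RCA, Rubisco activase, stood at 13.66 and 13.41 after reillumination and 13.74 and 13.64 in light. Neither passed the test, and both gave strong signals in every sample, so root and leaf of the labelled whole seedlings show in the data through 1 marker each. The other measured root marker, EXPA7, differed by 0.10 with no call.

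After 10 min of light, 926 probe sets were higher than in light and 874 were lower, at an adjusted p under 0.05 in limma's moderated test over all 22746. Those are 4.07% and 3.84% of the probe sets tested, 7.91% together. Unadjusted, 4420 had p under 0.05, where chance gives about 1137.3. Rises were larger than falls among the calls. Of the called probe sets, 258 rose at least 2-fold and 114 fell at least 2-fold, and the median change was log2 0.73 for the rises and -0.63 for the falls, against -0.01 over all probe sets. In each of the 1800, both same-numbered pairs of arrays moved the same way and the 2 groups did not overlap, where 66.8% of all probe sets moved the same way in both pairs and 48.0% had groups that did not overlap. With the replicate number as a block, 1518 were higher and 1593 lower, and the 1800 were among them. Precision is limited by 2 arrays a group: 614 of the 1800 were still called whichever of the 4 arrays was left out.

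**Figure D1:**
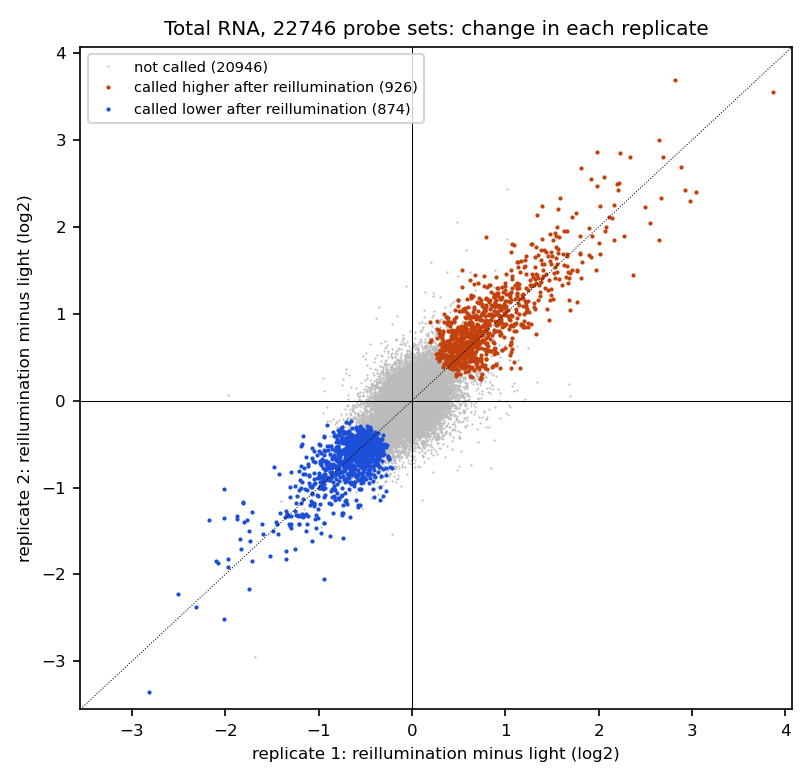
Change of each probe set in total RNA, reillumination minus light on the log2 scale, in replicate 1 (horizontal axis) and replicate 2 (vertical axis), with 1 point per probe set and the dotted line marking equal change. The 926 probe sets called higher lie in the upper right quadrant and the 874 called lower in the lower left.

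The annotation pairs a gene of its own with a probe set for 13355 genes, of which 923 were called (6.91%), 496 higher (3.71%) and 427 lower (3.2%). Blocked by replicate, 1580 were called (11.8%), 804 higher (6.02%) and 776 lower (5.81%). Only 1535 of these genes carry a symbol other than the locus name, and the others are named by locus with no role given. A gene is called measured here where the annotation pairs it with a probe set of its own. The 8730 probe sets that the annotation does not list were tested without a gene name, and genes not measured may be among them. Of the genes with a symbol, 69 rose and 57 fell. The calls of 28 of those rises and 10 of those falls stood whichever of the 4 arrays was left out, and all 38 are described below. Values after ± are standard errors from the model (n = 2 arrays in each group), and levels are log2 RMA values.

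PPDK, AKINBETA1 and ATL8, genes of the low-energy response, were higher after reillumination. Of 27 genes on a list of dark and sugar-starvation genes 4 were measured, and 3 of these rose and none fell (median log2 1.43). That is 75% called, against 6.91% of all genes, on a list chosen with earlier results of these data known. The share is therefore no test of the response, and the same holds for the shares of the lists below. PPDK, pyruvate orthophosphate dikinase, stood at log2 10.52 and 10.68 after reillumination, 10.59 and 10.66 in darkness, and 9.00 and 8.75 in light. AKINBETA1, a beta subunit of the SnRK1 kinase, had levels of 10.75 and 10.86 after reillumination, 10.72 and 10.50 in darkness, and 9.53 and 9.19 in light. ATL8, a RING-type ubiquitin ligase, had 8.26 and 8.43 after reillumination, 8.46 and 8.44 in darkness, and 7.05 and 6.81 in light. All 3 were high on both reillumination arrays and on both darkness arrays, and the light arrays lay clearly below with no overlap. Over light, PPDK rose by log2 1.73 ± 0.12 (3.32-fold, limma adjusted p = 1.42e-05), AKINBETA1 by 1.45 ± 0.14 (2.73-fold, adjusted p = 9.28e-05) and ATL8 by 1.41 ± 0.14 (2.66-fold, adjusted p = 0.000115). The fourth gene, the transcription factor gene BZIP53, differed by 0.47 ± 0.13 (adjusted p = 0.052, and 0.00651 with the replicate block).

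Some genes for the breakdown of branched-chain amino acids were higher as well. Of 14 listed genes 7 were measured, and 4 of these rose and none fell (median 0.62). That is 57.1% called, against 6.91% of all genes, a share that again is no test. MCCA and MCCB encode the subunits of methylcrotonyl-CoA carboxylase, and IVD encodes isovaleryl-CoA dehydrogenase, which acts just before it in leucine breakdown. MCCA stood at log2 11.10 and 11.45 after reillumination, 11.17 and 11.20 in darkness, and 9.52 and 9.56 in light. IVD stood at 10.01 and 10.04 after reillumination, 9.98 and 10.03 in darkness, and 8.60 and 8.54 in light. MCCB had 10.10 and 10.29 after reillumination, 10.15 and 10.12 in darkness, and 9.08 and 9.14 in light. For each of these 3 genes the reillumination and darkness arrays gave nearly the same level, well above light. The rises over light were 1.73 ± 0.13 for MCCA (adjusted p = 1.64e-05), 1.45 ± 0.12 for IVD (adjusted p = 2.58e-05) and 1.09 ± 0.10 for MCCB (adjusted p = 6.99e-05). ETFQO, which passes electrons from such dehydrogenases to ubiquinone, rose by 0.62 ± 0.16 (adjusted p = 0.0329). That call was lost without reillumination replicate 2 (adjusted p = 0.248), light replicate 1 (0.156) or light replicate 2 (0.121). AT2G26800, AT5G09300 and D2HGDH differed by 0.34, -0.13 and -0.21, with adjusted p of 0.0891, 0.76 and 0.393, and AT2G26800 had 0.0474 with the replicate block.

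Of other genes with a symbol whose call stood with any array left out, SDP1, a triacylglycerol lipase that starts the use of stored oil, had levels of log2 8.82 and 8.87 after reillumination, 8.76 and 8.69 in darkness, and 8.10 and 8.07 in light, a rise of 0.76 ± 0.11 (adjusted p = 0.0011). SCPL34, a serine carboxypeptidase-like gene, rose by 0.72 ± 0.10 (adjusted p = 0.00072), and OCT4, named as an organic cation transporter, by 0.93 ± 0.15 (adjusted p = 0.00276). VPS60.1 and ELC, both named for parts of the endosomal sorting machinery that carries membrane proteins toward the vacuole, rose by 0.70 ± 0.12 and 0.68 ± 0.11 (adjusted p = 0.00306 each). In the autophagy list, 1 of 9 measured genes rose (median 0.12), 11.1% against 6.91% of all genes. This was ATG8E, for a ubiquitin-like protein of the autophagosome membrane, at 0.82 ± 0.17 (adjusted p = 0.0107, 0.0972 without reillumination replicate 2 and 0.0852 without light replicate 2). The other 8 ATG8-type genes lay between -0.13 for ATG8G and 0.17 for APG8H, with no call.

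The light-signalling transcripts that the annotation names were lower than in light. Of 31 photoreceptor and light-signalling genes listed, only 3 are paired by the annotation with a probe set of their own. All 3 fell (median -1.03), where 6.91% of all genes were called. The list was chosen with earlier results known, so this is no test. AT3G44450 showed the largest fall among the 427 genes called lower. Its levels were log2 4.39 and 4.51 after reillumination, 4.15 and 4.58 in darkness, and 7.20 and 7.86 in light. AT3G52740 had 4.47 and 4.76 after reillumination, 4.54 and 4.83 in darkness, and 5.57 and 5.71 in light. HYH, the bZIP transcription factor close to HY5, had 3.61 and 3.82 after reillumination, 3.68 and 3.91 in darkness, and 4.39 and 4.49 in light. The reillumination and darkness arrays overlapped for all 3 genes, and the light arrays stood apart above both. AT3G44450 fell by 3.08 ± 0.22 against light (8.46-fold lower, adjusted p = 1.54e-05), AT3G52740 by 1.03 ± 0.16 (2.04-fold, adjusted p = 0.00216) and HYH by 0.73 ± 0.13 (1.66-fold, adjusted p = 0.00392). The lower quartile of the arrays lay between 4.07 and 4.13, so the HYH levels after reillumination were among the dimmest signals on the array. AT3G44450 and AT3G52740, at 4.15 to 4.83 after reillumination and in darkness, lay not far above that quartile. Their closeness to darkness is thus read among dim signals.

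On the clock list 5 of 29 genes were measured, of which 2 rose and 1 fell (median -0.16). That is 60% called, against 6.91% of all genes, a share that again is no test. COR27, a cold-regulated gene known as a repressor in the clock and in light signalling, stood at log2 7.29 and 7.44 after reillumination, 6.79 and 7.56 in darkness, and 4.80 and 5.21 in light. AT4G33980 had 8.97 and 8.62 after reillumination, 8.70 and 8.39 in darkness, and 6.42 and 6.58 in light. Both were about as high after reillumination as in darkness and far from light. They rose over light by 2.36 ± 0.21 (5.14-fold, adjusted p = 4.9e-05) and 2.30 ± 0.17 (4.92-fold, adjusted p = 1.63e-05). GI, which encodes GIGANTEA, a clock protein of the day, had 8.32 and 8.42 after reillumination, 8.49 and 8.30 in darkness, and 9.13 and 8.96 in light. It fell by 0.67 ± 0.11 (adjusted p = 0.00286). TIC, TIME FOR COFFEE, differed by -0.16 ± 0.15 and AT5G52660 by -0.20 ± 0.11, neither called. Among the 4 measured genes whose symbol begins with COR, COR27 was the only one called. AT4G33980, entered as COR28 on the clock list, carries no symbol here and is not among these 4. COR47, COR15B and COR15A differed by 0.26, -0.60 and -0.85 with no call, although COR15A had an adjusted p of 0.00317 with the replicate block.

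Defence and calcium-related transcripts were raised in a small set. Of 42 genes on the calcium, touch and elicitor list 8 were measured, and 3 of these rose and none fell (median 0.19). That is 37.5% called, against 6.91% of all genes, a share that again is no test. CML38, a calmodulin-like calcium sensor, stood at log2 6.81 and 7.09 after reillumination, 6.77 and 8.20 in darkness, and 4.83 and 4.62 in light. WRKY22, a transcription factor of immune signalling, had 7.15 and 7.29 after reillumination, 7.77 and 7.64 in darkness, and 5.25 and 5.61 in light. STZ, a salt tolerance zinc finger gene, had 7.48 and 7.67 after reillumination, 7.38 and 7.85 in darkness, and 5.94 and 5.89 in light. WRKY22 was lower after reillumination than in darkness on both arrays while it stayed above light. The other pair overlapped with darkness. Over light, CML38 rose by 2.22 ± 0.36 (4.67-fold, adjusted p = 0.00249), WRKY22 by 1.79 ± 0.15 (3.46-fold, adjusted p = 3.65e-05) and STZ by 1.66 ± 0.17 (3.15-fold, adjusted p = 0.000129). No call was made for their relatives CML23, CML37, WRKY53 and WRKY6, which differed by 0.12, 0.04, 0.08 and -0.02. Beyond that list, SIS, named as a salt-induced serine-rich gene, rose by 1.42 ± 0.14 (adjusted p = 9.28e-05). TET8, a membrane tetraspanin, rose by 1.24 ± 0.12 (adjusted p = 0.000102), and SRC2, a C2-domain protein gene, by 1.05 ± 0.18 (adjusted p = 0.00385). SIS had levels of 9.84 and 9.55 after reillumination, 10.23 and 10.19 in darkness, and 8.44 and 8.12 in light, an order in which reillumination lies between darkness and light without overlap.

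Growth and cell-wall genes moved both ways. EXO, the brassinosteroid-responsive EXORDIUM, was the gene with a symbol that rose most. Its levels were log2 11.05 and 11.11 after reillumination, 10.73 and 10.72 in darkness, and 8.01 and 8.70 in light. EXLA1, an expansin-like gene, had 10.20 and 10.64 after reillumination, 9.98 and 10.18 in darkness, and 8.19 and 8.95 in light. ARL, an ARGOS-like gene that promotes cell expansion, had 9.50 and 9.54 after reillumination, 9.65 and 9.77 in darkness, and 8.06 and 8.08 in light. Reillumination lay above light on every array in the 3 genes, and in EXO and EXLA1 it lay above darkness too. The rises over light were 2.72 ± 0.23 for EXO (6.59-fold, adjusted p = 2.95e-05), 1.85 ± 0.26 for EXLA1 (3.6-fold, adjusted p = 0.00104) and 1.45 ± 0.12 for ARL (2.73-fold, adjusted p = 3.52e-05). EXPA8, an expansin that loosens the wall, went the other way. It had 9.81 and 9.53 after reillumination, 9.70 and 9.62 in darkness, and 10.56 and 10.54 in light, a fall of 0.88 ± 0.12 (adjusted p = 0.00072).

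Of 27 expansins and xyloglucan enzymes listed by name, 4 rose and 3 fell (median 0.10), 25.9% against 6.91% of all genes. Beside EXLA1 and EXPA8 these were EXLA2 (0.66 ± 0.14), XTH20 (0.61 ± 0.13) and XTH16 (0.56 ± 0.14) among the rises, and XTH32 (-0.68 ± 0.12) and EXPB1 (-0.91 ± 0.22) among the falls. The calls of those 5 depended on single arrays. Without reillumination replicate 2 the adjusted p was 0.0557 for EXLA2, 0.145 for XTH20, 0.156 for XTH16, 0.0573 for XTH32 and 0.206 for EXPB1. Without light replicate 1 it was 0.0998 for EXLA2, 0.111 for XTH20, 0.24 for XTH16 and 0.187 for EXPB1, and without reillumination replicate 1 it was 0.0871 for EXLA2 and 0.153 for XTH16. Of other wall genes with a call that no left-out array ended, EXGT-A3, a xyloglucan endotransglucosylase, rose by 0.71 ± 0.12 (adjusted p = 0.00327), and ATPMEPCRB, a pectin methylesterase, by 0.84 ± 0.13 (adjusted p = 0.00248).

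In the auxin-response list, with 6 of 19 genes measured, 1 rose (median 0.02), 16.7% against 6.91% of all genes. WES1, an auxin-conjugating enzyme of the GH3 family, had levels of log2 9.88 and 9.94 after reillumination, 10.11 and 9.65 in darkness, and 8.87 and 8.48 in light. It rose by 1.24 ± 0.18 (2.36-fold, adjusted p = 0.00128). IAA29, an auxin-response repressor, had 6.89 and 7.34 after reillumination, 7.39 and 7.74 in darkness, and 7.68 and 8.05 in light. It differed by -0.75 ± 0.23 with an adjusted p of 0.0768, and 0.000118 with the replicate block. The only measured gene of the shade-response list, HAT2, an auxin-induced homeobox gene, rose by 0.75 ± 0.19 (adjusted p = 0.0352), a call that did not survive the loss of any array (adjusted p = 0.0557 without reillumination replicate 1, 0.248 without reillumination replicate 2, 0.169 without light replicate 1 and 0.122 without light replicate 2). Among regulators that are on none of the pathway lists, GT2, a trihelix DNA-binding protein, rose by 0.77 ± 0.11 (adjusted p = 0.00125) and ROXY2, a glutaredoxin, by 0.64 ± 0.11 (adjusted p = 0.00316). Of 5 measured bHLH transcription factor genes listed by name, 1 rose and 1 fell (median 0.01), 40% against 6.91% of all genes. bHLH121 rose by 0.83 ± 0.13 (adjusted p = 0.00174), and bHLH34 fell by 0.70 ± 0.13 (adjusted p = 0.00509, and 0.0552 without light replicate 2).

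Of the 10 falls with a symbol whose call stood with any array left out, HYH, GI and EXPA8 are given above, and the others were UGT78D1, UGT76E11, CYP71B26, CYP71B35, AOR, VTC4 and LSMT-L. UGT78D1, a flavonol rhamnosyltransferase, stood at log2 6.19 and 6.46 after reillumination, 6.21 and 6.09 in darkness, and 7.23 and 7.68 in light. AOR, a chloroplast enzyme that reduces reactive carbonyls, had 9.03 and 9.13 after reillumination, 9.15 and 9.40 in darkness, and 10.13 and 10.33 in light. VTC4, a phosphatase of ascorbate synthesis, had 7.80 and 8.01 after reillumination, 8.04 and 8.29 in darkness, and 8.63 and 8.87 in light. All 3 were lower on both reillumination arrays than on either light array. They fell by 1.13 ± 0.16 (adjusted p = 0.000888), 1.15 ± 0.15 (adjusted p = 0.00065) and 0.84 ± 0.14 (adjusted p = 0.00303). LSMT-L, a protein lysine methyltransferase, fell by 0.61 ± 0.11 (adjusted p = 0.00548).

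Of 47 UDP-glucosyltransferases, which attach sugars to small molecules, 3 rose and 5 fell (median -0.01), 17% against 6.91% of all genes. UGT85A5 rose by 0.78 ± 0.11 (adjusted p = 0.00102), and UGT76E11 fell by 0.97 ± 0.15 (adjusted p = 0.00158). UGT78D1 and these 2 genes were the ones that kept their call with any array left out. Of 24 cytochromes P450, 1 rose and 2 fell (median -0.11), 12.5% against 6.91% of all genes. CYP71B26 had levels of log2 8.32 and 8.40 after reillumination, 8.01 and 8.57 in darkness, and 9.75 and 9.93 in light. CYP71B35 had 4.79 and 4.90 after reillumination, 5.08 and 5.25 in darkness, and 5.72 and 5.75 in light. These genes fell by 1.48 ± 0.17 (2.79-fold, adjusted p = 0.000287) and 0.89 ± 0.11 (adjusted p = 0.000587). The gene that rose, CYP71B23, was of the same family. Its change was 0.66 ± 0.18 (adjusted p = 0.0487), and CYP71B34 differed by -0.30 ± 0.12 (adjusted p = 0.171). The loci of CYP71B26, CYP71B35, CYP71B23 and CYP71B34 are AT3G26290, AT3G26310, AT3G26210 and AT3G26300, and these relatives with near-consecutive locus numbers moved unequally. The CYP71B23 call was lost without reillumination replicate 1 (adjusted p = 0.211), reillumination replicate 2 (0.147) or light replicate 2 (0.386).

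No measured gene on the photosynthesis lists passed the test, but most listed nuclear genes were not measured. Measured were 6 of 34 nuclear genes of light harvesting and the photosystems, 9 of 27 of chlorophyll metabolism and 3 of 18 of the Calvin cycle. None of these was called, where 6.91% of all genes were, and the medians were -0.16, -0.20 and -0.32. With so few genes measured, the lack of a call is no result about photosynthesis as a whole. All 6 genes of the first group and all 3 of the Calvin cycle had values below 0. PSBY, a small subunit of photosystem II, had levels of log2 12.46 and 12.37 after reillumination, 12.45 and 12.38 in darkness, and 12.71 and 12.78 in light. It differed by -0.33 ± 0.10 (adjusted p = 0.084, and 0.0471 with the replicate block). TROL, a thylakoid rhodanese-like protein, differed by -0.40 ± 0.12 (adjusted p = 0.0661, and 0.0341 with the block), and PSB27 by -0.13 ± 0.11. Of the chlorophyll genes, LIL3:1 and CHLI2 differed by -0.47 and -0.58, with adjusted p of 0.0512 and 0.235, and 0.0209 and 0.00572 with the block, and LIL3:1 had 0.0388 without reillumination replicate 2. LIL3:2 differed by -0.33 ± 0.12 with no call. CHLM and PORB, for a methyltransferase and a light-dependent reductase of chlorophyll synthesis, differed by -0.04 ± 0.12 and 0.08 ± 0.15. In the Calvin cycle, PRK, phosphoribulokinase, differed by -0.37 ± 0.12 (adjusted p = 0.0972), SBPASE by -0.32 ± 0.12 and RCA by -0.16 ± 0.13. None of the 69 chloroplast-encoded transcripts was called (median -0.03), although 5 were called higher without light replicate 1. With the block 2 were, rps14 (1.44 ± 0.49, blocked adjusted p = 0.0202) and rpoB (0.98 ± 0.35, blocked adjusted p = 0.0168). The rps14 probe set stood at 8.99 and 7.91 after reillumination, 8.28 and 8.21 in darkness, and 7.97 and 6.05 in light, and its light arrays lay farther apart than the group means did.

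Genes connected by name with the chloroplast NAD(P)H dehydrogenase complex, which cycles electrons around photosystem I, were singled out after their values were seen. Of 19 measured, 4 fell and none rose (21.1% called, against 6.91% of all genes). None of the 10 chloroplast-encoded subunits was called (median -0.01), and the 4 falls were among 9 nuclear genes (median -0.48). CRR21 and CRR42, both named for reduced chlororespiration, fell by 0.73 ± 0.14 and 0.70 ± 0.15 (adjusted p = 0.00677 and 0.0167). NdhN, a subunit of the complex, fell by 0.57 ± 0.12 (adjusted p = 0.0112). PIFI, named for post-illumination chlorophyll fluorescence increase, had levels of log2 11.29 and 11.29 after reillumination, 11.34 and 11.42 in darkness, and 11.72 and 11.82 in light, and fell by 0.48 ± 0.12 (adjusted p = 0.0264). All 4 lost their call without light replicate 2 (adjusted p = 0.0659, 0.12, 0.0828 and 0.177) and without reillumination replicate 1 (0.0512, 0.101, 0.053 and 0.122). CRR42, NdhN and PIFI lost it too without reillumination replicate 2 (0.0769, 0.085 and 0.129), and CRR42 and PIFI without light replicate 1 (0.0623 and 0.0718).

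**Figure D2:**
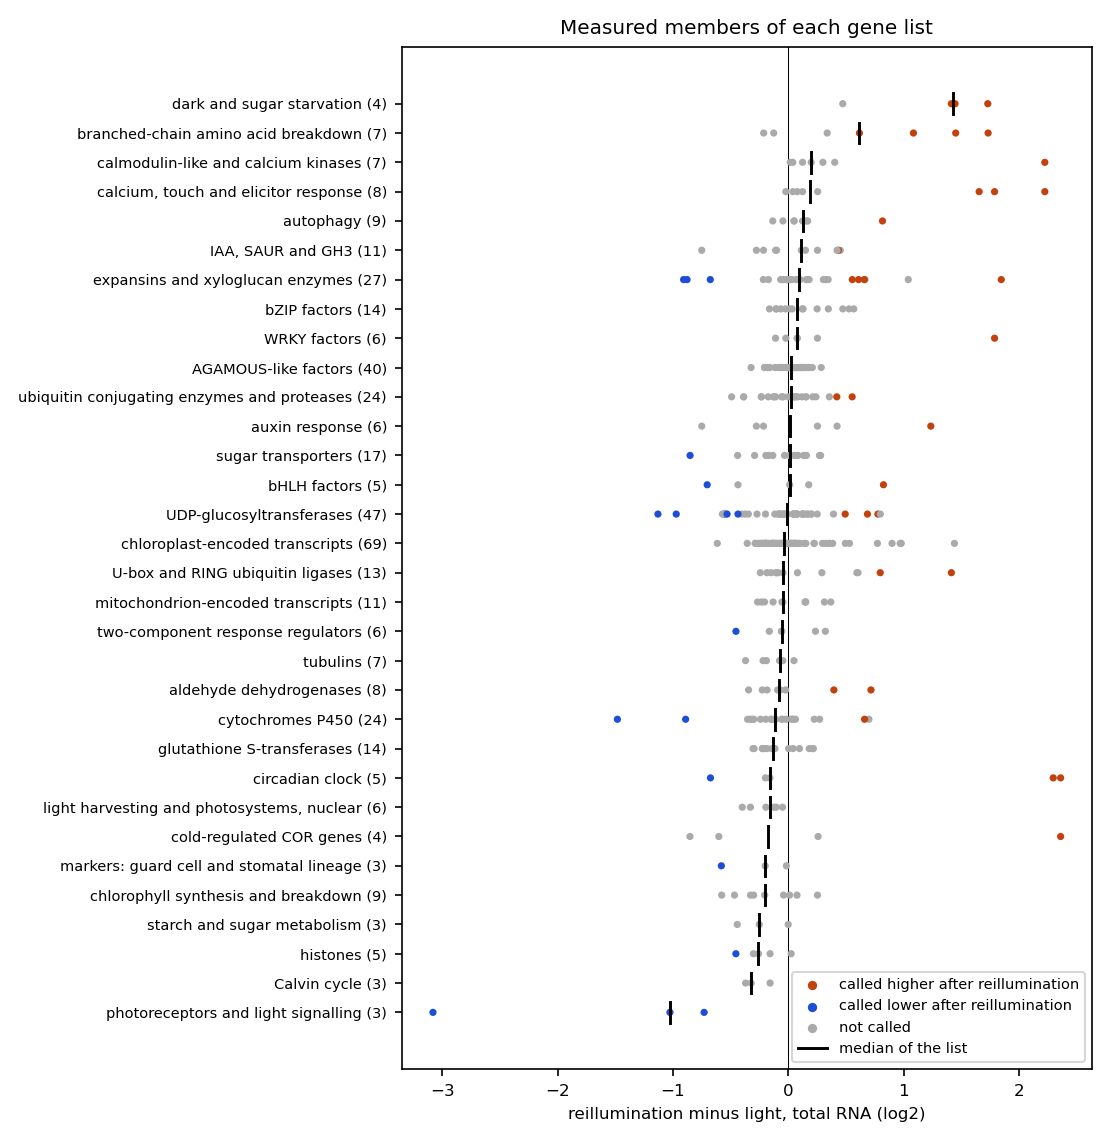
Change in total RNA, reillumination minus light on the log2 scale, of each measured member of the gene lists with at least 3 measured members, whose number is in parentheses. Each point is a gene, coloured where it was called, and the black bar is the median of the list, which is 1.43 for dark and sugar starvation, 0.62 for branched-chain amino acid breakdown and -1.03 for light signalling.

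The other lists held few calls. None was called among 40 AGAMOUS-like factors (median 0.03), 14 glutathione S-transferases (-0.13), 14 bZIP factors (0.08), 11 mitochondrion-encoded transcripts (-0.05), 7 tubulins (-0.08) and 3 genes of starch and sugar metabolism (-0.25). Across all genes 6.91% were called, so no conclusion is drawn from lists this short without a call. With the replicate block 3 of the 14 bZIP factors were called higher, where 6.02% of all genes were. Without the block, exactly 1 gene was called in each of several further lists. SWEET13 was called among 17 sugar transporters (-0.85, 5.88% called) and RR16 among 6 response regulators (-0.45, 16.7%). HTB1 was called among 5 histones (-0.45, 20%) and SPCH among 3 genes of the stomatal lineage (-0.58, 33.3%). These 4 calls were lost without light replicate 2 (adjusted p = 0.0629, 0.113, 0.344 and 0.178) and without at least 2 of the other 3 arrays each. The summed level of the 3 stomatal genes, none of which was at 0, was log2 6.81 and 7.14 after reillumination and 7.17 and 7.29 in light, and its part in the results was not tested. IAA18 was the 1 gene called, higher, among 11 IAA, SAUR and GH3 genes listed by name (9.09%). Its call was lost whichever array was left out. MYBC1, the only measured gene of the MYB list, rose by 0.60, and its call was lost without at least 1 array. Among 24 ubiquitin-conjugating enzymes and ubiquitin proteases 2 genes were called (8.33%), and among 8 aldehyde dehydrogenases 2 (25%), against the 6.91% of all genes. Among 13 ubiquitin ligases 2 were called (15.4%), PUB23 and ATL8, which is described above.

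Among the 13355 genes with a probe set of their own, those with the largest changes mostly carry no symbol. Of the 15 largest rises 10, and of the 15 largest falls 14, are known here by locus alone. The 8730 probe sets that the annotation does not list were not ranked. They hold 416 of the 926 higher calls and 436 of the 874 lower calls. Of the ranked genes AT1G72060 rose most. It stood at log2 9.69 and 9.16 after reillumination, 9.63 and 9.53 in darkness, and 7.05 and 6.16 in light, a rise of 2.82 ± 0.32 (7.06-fold, adjusted p = 0.000214). AT1G15010 had 8.09 and 8.51 after reillumination, 8.53 and 9.07 in darkness, and 5.21 and 5.81 in light, a rise of 2.79 ± 0.26 (6.91-fold, adjusted p = 5.99e-05). In both genes the reillumination arrays were far above the light arrays, and for AT1G15010 they were below the darkness arrays. AT1G25400, AT5G39580, AT1G02660, AT3G19680, AT2G39980, AT1G50040 and AT5G25240 rose by 2.54, 2.42, 2.35, 2.25, 2.12, 2.09 and 1.90, with adjusted p between 2.13e-05 for AT1G50040 and 0.00147 for AT5G39580. GAT1_2.1, a glutamine amidotransferase gene, closed the 15 with a rise of 1.82 ± 0.34 (adjusted p = 0.00688, 0.076 without reillumination replicate 2 and 0.055 without light replicate 2). A second probe set of this gene differed by only 0.05 ± 0.15 with levels between 3.67 and 3.83 on the 4 arrays, below the lower quartile of each of them. In all, 15 called genes had another probe set. Of their 16 other probe sets 3 were called, where 7.91% of all probe sets were, and 15 changed in the same direction.

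AT5G01790 was the second largest fall. It had log2 6.14 and 5.91 after reillumination, 5.84 and 6.12 in darkness, and 7.89 and 8.07 in light, a fall of 1.96 ± 0.16 (3.88-fold, adjusted p = 2.47e-05). AT1G60590 and AT4G16880 fell by 1.77 each, AT5G59130 by 1.66, AT3G56080 by 1.59, AT2G19650 by 1.57, AT2G15020 by 1.51 and AT5G56850 by 1.49. AT5G62140, AT1G10640, AT3G28040, AT2G40435 and AT3G01060 fell by 1.43, 1.38, 1.37, 1.34 and 1.32. AT3G01060 lost its call without light replicate 2 (adjusted p = 0.0631), and the others kept it with any array left out. AT2G15020 and AT2G40435 stood at 3.53 and 3.73 and at 3.79 and 3.54 after reillumination, below the lower quartile of the array. In all, 85 of the 874 lower calls had a reillumination mean below log2 5, and 49 of the 926 higher calls had a light mean below it.

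**Figure D3:**
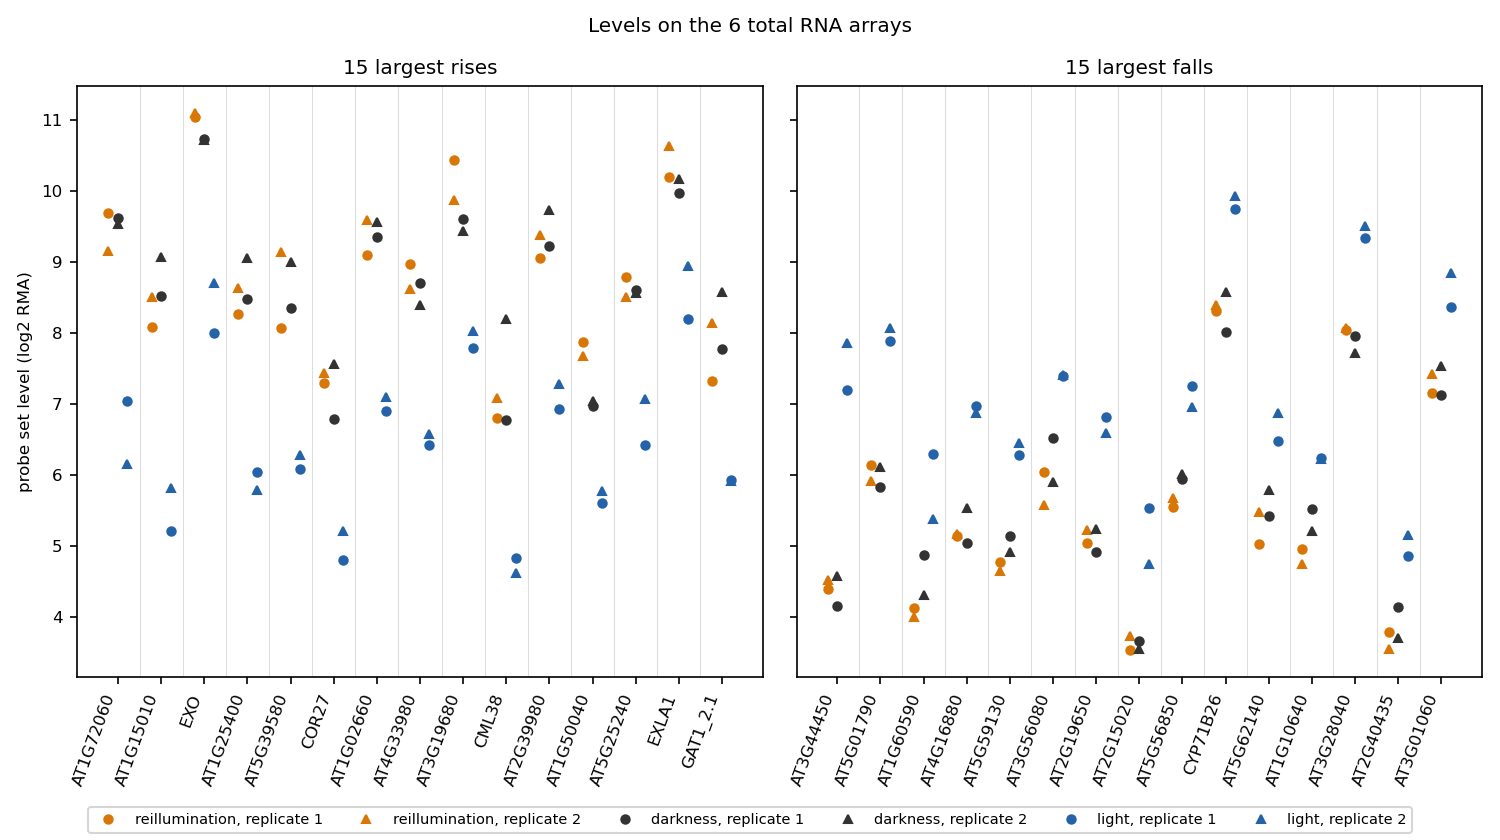
Levels (log2 RMA) on the 6 total RNA arrays for the 15 genes with the largest rises (left) and the 15 with the largest falls (right), with reillumination, darkness and light side by side for each gene and the replicate given by the symbol. The 30 were chosen among called genes, so their reillumination and light arrays do not overlap, as in every called probe set. Of all probe sets 48.0% have no overlap. AT3G44450 stands at 4.39 and 4.51 after reillumination against 7.20 and 7.86 in light.

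How much had changed within the 10 min of light is given by reillumination over darkness. Here 0 of 22746 probe sets were called (0.0%), the smallest adjusted p was 0.178, and 980 had an unadjusted p under 0.05 where chance gives about 1137.3. The replicate block gave 12 calls, 4 higher and 8 lower. This comparison shares the reillumination arrays with the one above, so the values are set side by side and not tested against each other. Darkness over light, which shares the light arrays, called 2151 probe sets (9.46%), 997 higher (4.38%) and 1154 lower (5.07%). For PPDK the difference was -0.02, with a 95% interval from -0.29 to 0.24, against 1.73 over light. For AT3G44450 it was 0.09 (-0.39 to 0.57), against a fall of 3.08 relative to light, with dim levels both after reillumination and in darkness. MCCA, IVD and GI differed from darkness by 0.09 (-0.19 to 0.37), 0.02 (-0.24 to 0.27) and -0.02 (-0.27 to 0.22). These intervals are per gene, unadjusted and from the fit without the block, and describe the difference from darkness relative to the rest of the array. In that difference the 10 min of light and the 10 min later harvest cannot be told apart. Of the 15 largest rises over light, the interval held 0 for 13 and lay above 0 for AT1G50040 (0.77, from 0.41 to 1.12) and AT3G19680 (0.62, from 0.13 to 1.11). Of the 15 largest falls, it held 0 for 12 and lay below 0 for AT1G10640, AT5G56850 and AT5G59130 (-0.52, -0.37 and -0.31). With the replicate block the intervals were narrower in all 30 genes. The blocked interval held 0 for 9 of the 15 rises, lay above 0 for EXO, EXLA1, AT3G19680 and AT1G50040, and lay below 0 for AT1G15010 (-0.50, from -0.75 to -0.25) and GAT1_2.1 (-0.45, from -0.86 to -0.03). Of the falls it held 0 for 9 and lay below 0 for 6, which were AT1G10640, AT5G56850, AT5G59130, AT5G62140, AT3G56080 and AT1G60590. None of these 12 genes had a blocked adjusted p under 0.05, the smallest being 0.133 for AT1G50040.

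Among the genes called over light, 5 with the largest drop and 5 with the largest gain since darkness were listed, none of them called in this comparison without the block. AT3G62950 had log2 6.70 and 6.88 after reillumination, 7.59 and 8.10 in darkness, and 5.04 and 4.92 in light. AT4G10910 had 8.08 and 8.06 after reillumination, 9.03 and 9.12 in darkness, and 7.43 and 7.30 in light. AT3G07350 had 10.16 and 10.10 after reillumination, 11.01 and 10.72 in darkness, and 8.93 and 9.09 in light. In these 3 genes reillumination stood between darkness and light on every array. They differed from darkness by -1.05, -1.01 and -0.74, with blocked adjusted p of 0.0506, 0.00863 and 0.0362. AT4G28703 and AT3G04640 differed from darkness by -0.87 and -0.76, with blocked adjusted p of 0.128 and 0.0205. Among the gains, AT2G15880 had 7.16 and 6.71 after reillumination, 6.35 and 5.90 in darkness, and 5.67 and 5.50 in light, a difference from darkness of 0.81 (0.40 to 1.22). AT1G50040 stood at 7.88 and 7.68 after reillumination, 6.97 and 7.05 in darkness, and 5.61 and 5.78 in light. Both lay farther from light after reillumination than in darkness. AT5G46450, AT3G19680 and AT1G69760 differed from darkness by 0.72, 0.62 and 0.59, and none of the 5 gains had a blocked adjusted p under 0.05. Over light, the calls of AT4G10910 and AT4G28703 were lost without light replicate 2 (adjusted p = 0.0673 and 0.0578), and those of AT3G04640, AT1G69760 and AT5G46450 were lost without at least 3 of the 4 arrays, taken 1 at a time, with adjusted p up to 0.254, 0.249 and 0.311.

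The same contrast in captured polysomal RNA called 2020 probe sets (8.88%), 1088 higher (4.78%) and 932 lower (4.1%). It uses other arrays but RNA of the same extracts. All 15 of the largest rises in total RNA were called there, with changes of 1.61 to 2.91, and 13 of the 15 largest falls were. PPDK rose by 1.66 in captured RNA and by 1.73 in total RNA, MCCA by 1.79 and 1.73, and EXO by 2.91 and 2.72. AT3G44450 fell by 3.69 in captured RNA and by 3.08 in total RNA. The test of the difference between the pools, the change of the polysomal-to-total ratio, called 0 of 22746 probe sets (0.0%), with 621 at an unadjusted p under 0.05 and a smallest adjusted p of 0.9998. The 2 large falls without a call in captured RNA were AT3G56080 (-0.16 in captured RNA, ratio change 1.42, unadjusted p = 0.00053 by limma) and AT1G60590 (-0.74, ratio change 1.03, unadjusted p = 0.026 by limma). With no adjusted call, these ratio changes are not distinguished from the spread of the arrays.

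**Figure D4:**
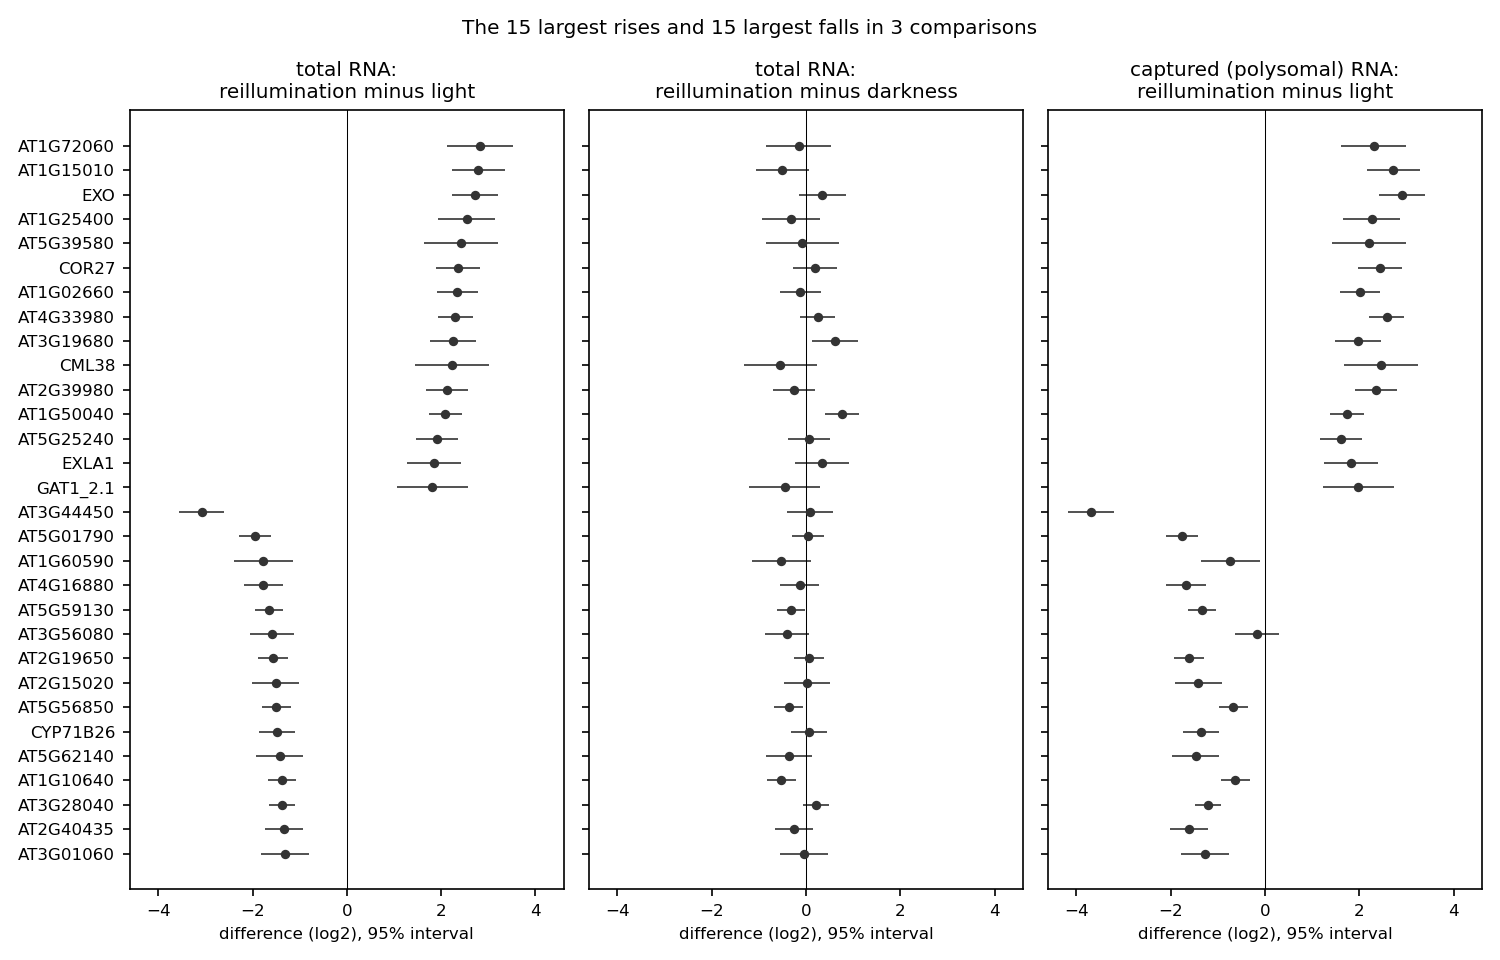
Differences on the log2 scale with 95% intervals from the fit for the 15 largest rises and the 15 largest falls: reillumination minus light in total RNA (left), reillumination minus darkness in total RNA (middle) and reillumination minus light in captured RNA (right). In the middle panel 13 of the 15 rises and 12 of the 15 falls have an interval that holds 0 in this fit without the replicate block, while AT3G44450 is 3.08 below light in total RNA and 3.69 below it in captured RNA.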

How the data were processed

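The deposited table holds log2 expression values per probe set, which the authors made with RMA and affy, per the submitters' processing notes; their versions are not given there. RMA corrects background, makes the arrays' distributions alike by quantile normalization and summarizes probes, so each change is relative to the rest of the array. Of 22810 probe sets, 64 controls were set aside. Arrays have no counting depth: their number limits the precision, and the median standard error of a difference was log2 0.13.

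The 12 arrays entered 1 limma model (version 3.58.1, R 4.3.3) with a mean per group for the 6 groups, which left 6 residual degrees of freedom, with 5.48 more from the empirical Bayes prior. Two-sided tests were adjusted by Benjamini-Hochberg over 22746 probe sets and called at an adjusted p under 0.05. The script was tested on simulated data. Platform annotation pairs 13513 probe sets with 1 gene and 503 with several, and does not list 8730. Names come from a gene table (assembly TAIR10.1) that held 13436 of the 13513. Where a gene had several probe sets, the name type with the least cross-hybridization was taken, and among equals the brightest.

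Per the labels' protocols, RNA came from independent biological replicate experiments, and same-numbered arrays deviated together in all pairs of groups (r of 0.29 to 0.51), so the number was also fitted as a block. Alternatives were that block, other sets of arrays, moderation, a filter on dim probe sets, other scalings, probe set types and each array left out.

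Named genes were the 15 largest rises and falls, 32 genes fixed by symbol (25 measured, 19 called), called members of the gene lists, the 5 largest drops and gains since darkness, and all genes with a symbol whose call stood with any of the 4 arrays left out, a rule added after their values were seen. Some lists were made from gene names once the annotation was in hand. The genes and lists were chosen with earlier results of these data known, so the share called in a list is no test. HY5, PRR9, CCA1, LHY, ASN1, WRKY33 and RBCS1A are not analysed here. Plots used matplotlib 3.10.9 under Python 3.11.15.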

Additional observations from a re-analysis of the deposited data

How the results depend on the processing

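With the replicate block, 1518 probe sets were higher and 1593 lower after reillumination than in light, against 926 and 874 without it. With only the 4 arrays compared and the block the counts were 1889 and 2071, and with only the 6 total RNA arrays and the block, an alternative chosen after seeing the data, 1490 and 1511. The block kept every one of the 1800 calls and added to them. Leaving out 1 of the 4 arrays gave 462 to 621 higher and 329 to 512 lower, and the lowest counts came without reillumination replicate 2 for rises (462) and without light replicate 2 for falls (329). The cause was not tested. Without the block, the other settings gave 700 to 1006 higher and 600 to 946 lower. Centring the arrays on their medians gave 952 higher and 753 lower. Reillumination over darkness had 0 calls, but 12 with the block, 4 with the block on the 6 total RNA arrays, 1 with a trended and robust prior and 0 to 5 with 1 array left out, the 5 without darkness replicate 1. The cause of these was not tested. The ratio change had 0 calls under every alternative run. Of the 30 largest changes, 27 to 30 were called under each alternative, the 27 with probe sets below log2 5 filtered out. Of 75 single genes called, 49 were called under all 14 alternatives, and no gene changed direction. The block ended no call among the named genes, and it called others that missed the threshold without it, with the values given beside them: BZIP53, AT2G26800, COR15A, IAA29, PSBY (adjusted p = 0.0471), TROL, LIL3:1, CHLI2, rps14 and rpoB.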

Other observations

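The genes here were chosen after their values were seen. Of 7 measured glutamate receptor-like genes 2 fell and none rose (28.6%, against 6.91% of all genes). GLR3.3 and GLR3.5, which encode such channels, each fell by log2 0.65 ± 0.14 after reillumination relative to light (limma adjusted p = 0.0156 and 0.0128). Without light replicate 2 the adjusted p was 0.11 and 0.132, without reillumination replicate 1 it was 0.0982 and 0.0661, and without reillumination replicate 2 it was 0.0727 and 0.0834. GLR3.3 also lost its call without light replicate 1 (0.0626). SNZ and SMZ, AP2-type repressors of flowering, fell by 0.92 ± 0.25 and 0.54 ± 0.15 (adjusted p = 0.0474 and 0.0466). Neither of these 2 calls stood with any array left out (adjusted p up to 0.268 for SNZ and 0.293 for SMZ, both without reillumination replicate 2).

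MGL, methionine gamma-lyase, which breaks down methionine, rose by 0.86 ± 0.16 (adjusted p = 0.00639, 0.0685 without reillumination replicate 1 and 0.071 without light replicate 2). Its levels were log2 9.01 and 8.72 after reillumination, 8.78 and 8.58 in darkness, and 8.10 and 7.91 in light.

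BHLH101, a transcription factor gene of the iron-deficiency response, was lower after reillumination than in darkness in both replicates. It stood at 5.06 and 4.38 after reillumination, 6.03 and 5.21 in darkness, and 5.49 and 4.83 in light. The difference from darkness was -0.90, called with the replicate block (adjusted p = 0.0205) and not without it.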
